A study of Homo sapiens with 9 samples.

Results

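The transcripts of 10 genes of the enterocyte microvillus were followed in Caco-2, a line from a human colon carcinoma whose cells, once differentiated, form a brush border and come to resemble small intestinal enterocytes. The genes were taken by name and NCBI Gene ID from a list of the proteins that build the microvillus core and the adhesion complex between microvilli. They are VIL1, VILL, PLS1, ESPN, EZR, MYO1A, CDHR2, CDHR5, USH1C and MYO7B. All 10 were among the 28395 genes of the deposited count tables, and all 10 passed the filter on low counts that left 16017 genes for testing. Wild-type Caco-2 cells, differentiated in culture plates, received carmine at 10 µM or carminic acid at 20 µM. Control cells received culture medium with nothing added. Carminic acid is the red anthraquinone pigment of cochineal insects, and carmine is its metal lake used as a food colour. Exposure lasted 24 h in all 3 groups, and total RNA from 3 samples per group (A, B and C) was sequenced. The labels do not say whether the 3 samples of a group were separate cultures of cells, so p-values measure the spread among samples that may be technical replicates.

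A microvillus is a finger of apical membrane held up by a bundle of parallel actin filaments. Villin, espin and plastin crosslink the filaments, while ezrin and the motor myosin-1a tie the bundle to the membrane. At the tips, the protocadherins CDHR2 and CDHR5 reach across to those of neighbouring microvilli, and harmonin, ANKS4B, CALML4 and the motor myosin-7b anchor them to the actin core. This intermicrovillar adhesion complex packs microvilli into the ordered array of a mature brush border, and it was worked out in good part in Caco-2 cells.

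Counts summed to between 54871018 and 57581301 per library. All 13 enterocyte markers examined had at least 1 CPM (read count scaled to library size, per 1e6 reads), and their summed level was 5051 to 6001 CPM with carmine, 5088 to 5859 CPM with carminic acid and 4964 to 5247 CPM in control. Their log2 fold changes had a median of 0.08 with carmine (10 of 13 positive) and 0.10 with carminic acid (13 of 13 positive), and none passed in edgeR. Of 6 enteroendocrine markers only CHGB reached 1 CPM, and of 5 tuft cell markers AVIL and IL17RB did. Goblet and secretory markers summed to 317 to 328 CPM, 300 to 342 CPM and 296 to 347 CPM in the same order of groups, with 4 of 7 at 1 CPM or more and MUC2, SPDEF and CLCA1 below it. Of 6 fibroblast markers 4 reached 1 CPM, with sums of 110 to 134, 114 to 148 and 127 to 163 CPM, mostly from COL1A1. These 4 had negative log2 fold changes in both comparisons with control (medians -0.29 and -0.24), with LUM at 0.721 to 1.23 CPM with carmine, 0.806 to 1.03 CPM with carminic acid and 1.28 to 1.80 CPM in control, and none passed in edgeR. COL1A2 and DCN, also made by fibroblasts, were near 0. Endothelial and immune markers summed to 341 to 354, 332 to 402 and 312 to 347 CPM, mostly from CD68. Mitochondrially encoded transcripts took 0.974 to 1.3% of counts with carmine, 1.24 to 2.08% with carminic acid and 1.94 to 2.51% in control. The part of these shifts in the results on the microvillus genes was not tested. Library C of the carmine group stood apart on the first principal component (20.9% of the variance), at 34.5 against -19.4 to 14.5 for the other 8 libraries, so carmine values are also given without it where it matters. In bulk RNA, fewer cells of a type and less RNA per cell cannot be told apart.

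The 10 transcripts span a wide range of base composition, and the fold changes described further on are set against it. GC content was 69.6% in ESPN, 64.5% in CDHR5, 60.1% in MYO7B, 59.8% in VILL, 58.8% in CDHR2, 55.9% in USH1C, 52.2% in MYO1A, 51.2% in EZR, 44.4% in VIL1 and 36.1% in PLS1. Of the 10, 9 lie above 43.1%, the lower quartile of all transcripts compared, and 5 lie above the upper quartile of 57.7%. A stretch of 90 coding bases is shown for 3 of them, chosen because its GC content is close to that of the whole coding sequence. Capitals mark G and C, positions count from the first coding base, and the sequences are from GENCODE v29 on GRCh38.
ESPN (bases 217 to 306, 70.0% GC): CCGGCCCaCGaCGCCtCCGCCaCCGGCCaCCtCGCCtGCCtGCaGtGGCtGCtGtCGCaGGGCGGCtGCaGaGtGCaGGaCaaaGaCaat
MYO1A (bases 13 to 102, 52.2% GC): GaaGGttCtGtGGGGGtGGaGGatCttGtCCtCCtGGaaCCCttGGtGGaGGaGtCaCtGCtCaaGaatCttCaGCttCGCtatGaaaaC
PLS1 (bases 64 to 153, 41.1% GC): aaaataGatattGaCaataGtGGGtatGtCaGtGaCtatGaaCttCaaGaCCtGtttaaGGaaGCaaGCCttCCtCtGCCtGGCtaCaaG
The ESPN stretch is mostly capitals and the PLS1 stretch mostly lower case, with MYO1A between them.

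**Figure D1:**
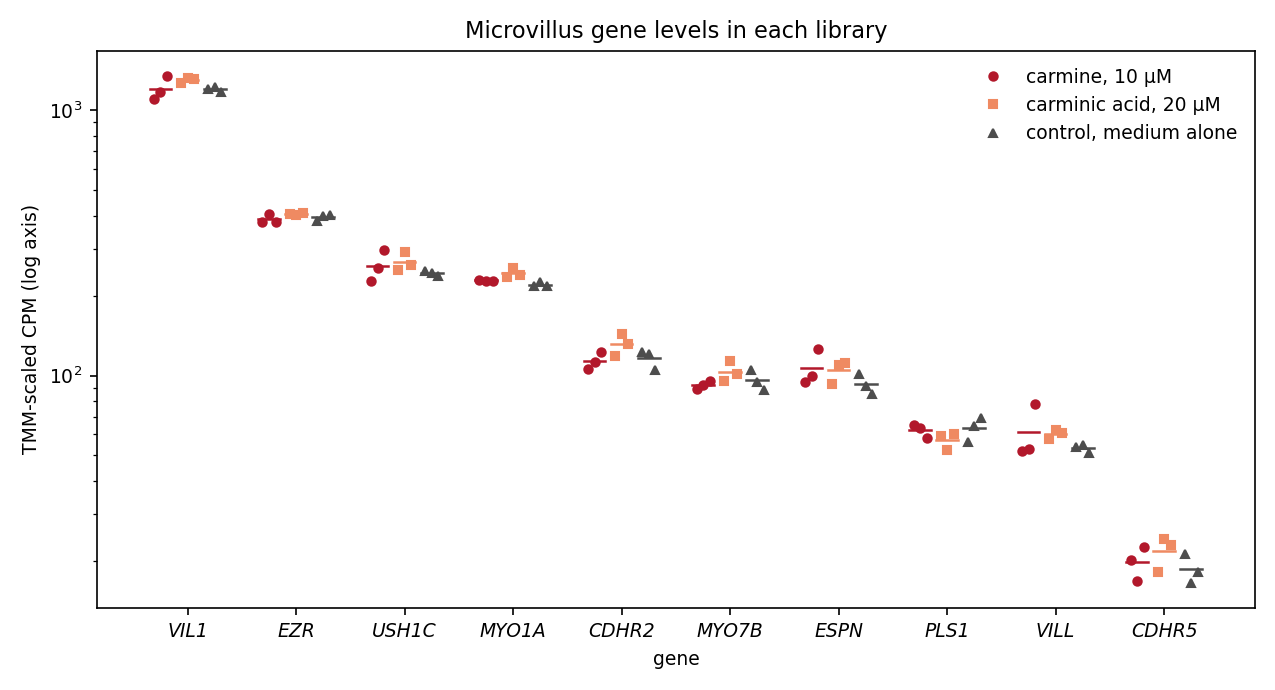
Level of each of the 10 microvillus genes in every library, as TMM-scaled CPM on a log axis, with carmine, carminic acid and control from left to right for each gene; a point is 1 library and a bar is the mean of 3. VIL1 had the highest CPM (1107 to 1346) and CDHR5 the lowest (16.6 to 24.3), and the 3 groups of each gene lie close together beside the distance between genes.

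Transcript levels per kilobase separated the 10 genes far more than the treatments did. In control cells VIL1 stood at 184 ± 4.16 CPM per kb of transcript (SD, n = 3), EZR at 128 ± 3.52, USH1C at 90.2 ± 1.93 and MYO1A at 60.3 ± 1.16. No control library of one of these 4 genes overlapped those of the next. CDHR2 followed at 25.7 ± 2.12 CPM per kb, and its control libraries also lay above those of the next gene. ESPN at 19.6 ± 1.66, VILL at 17.9 ± 0.667, PLS1 at 16.9 ± 1.79 and MYO7B at 14.3 ± 1.26 CPM per kb formed a graded set in which each overlapped the next. CDHR5 was lowest at 5.14 ± 0.653 CPM per kb. Among 15443 tested genes with a known transcript, VIL1 lay at the 97.9th percentile of CPM per kb in control, EZR at the 96.7th, USH1C at the 95.3rd and CDHR5 at the 46.8th.

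The order held in the treated groups except for 1 exchange. With carmine the ranks of all 10 genes equalled those in control, and with carminic acid MYO7B (15.4 ± 1.38 CPM per kb) and PLS1 (15.3 ± 1.17) changed places, a pair that overlapped in control as well. The scale depends on the transcript chosen, here the one with the longest coding sequence. Per kilobase of coding sequence alone, PLS1 stood at 33.6 in control and ranked 5, ahead of CDHR2 at 29.5, and VIL1 stood at 484. The USH1C transcript has 2700 bases, of which 2697 are coding, so its value per kilobase of transcript is set almost without untranslated sequence.

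None of the 10 genes passed the test between carmine and control (edgeR quasi-likelihood test, Benjamini-Hochberg adjusted over 16017 genes, threshold 0.05). Their log2 fold changes ran from -0.06 in MYO7B to 0.20 in VILL and ESPN, with 6 of 10 positive and a median of 0.03, beside 51.7% positive and a median of 0.01 over all tested genes. The background of that comparison was 0% of genes called and 11% with an unadjusted p under 0.05 (5.38% higher and 5.61% lower), and none of the 10 had such a p. Between carminic acid and control none passed either. There 9 of 10 log2 fold changes were positive, from -0.15 in PLS1 to 0.23 in CDHR5, with a median of 0.14, against 48.1% positive and a median of -0.01 over all genes. The background was 0% called and 6.43% with an unadjusted p under 0.05 (2.52% higher and 3.91% lower), and 1 of the 10, MYO1A, had such a p, on the higher side. The comparisons share their control libraries.

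**Figure D2:**
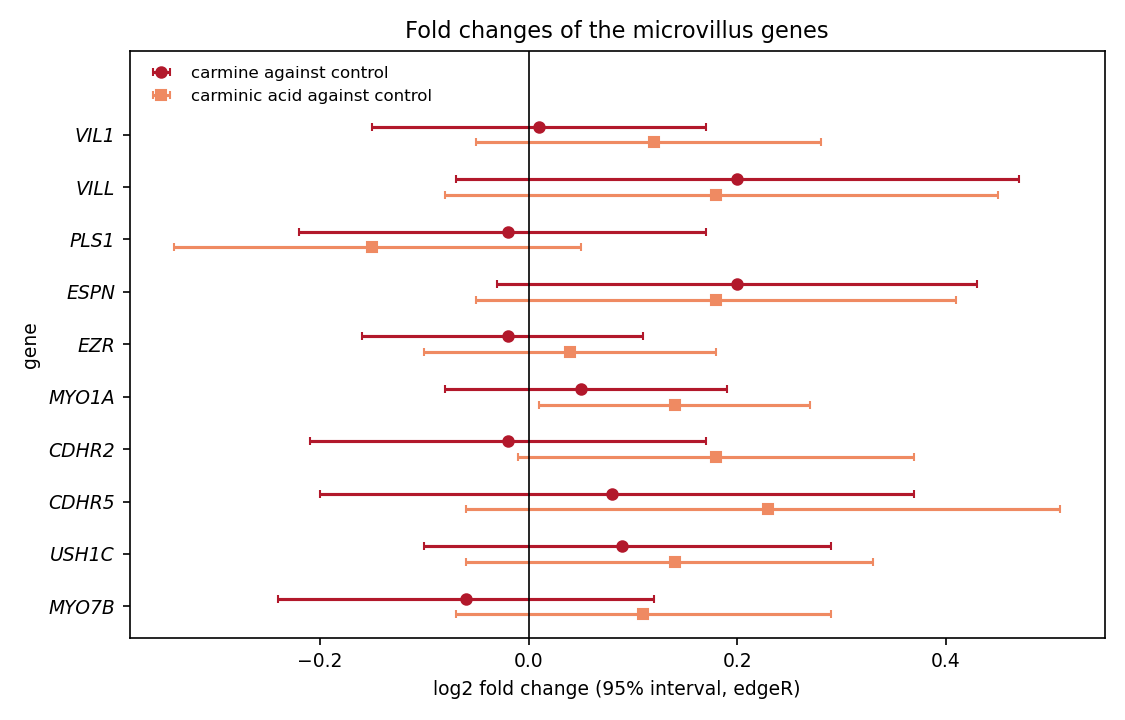
Log2 fold change of each microvillus gene with its 95% interval from edgeR, for carmine against control (upper of each pair) and carminic acid against control (lower). All intervals include 0 except that of MYO1A with carminic acid, which runs from 0.01 to 0.27.

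The actin bundling and severing proteins come first. VIL1 (chr2:218419123-218453295, plus strand) encodes villin, which bundles actin and at high calcium severs it. VIL1 had 1107, 1171 and 1346 CPM with carmine, 1267, 1327 and 1315 CPM with carminic acid, and 1207, 1223 and 1170 CPM in control. All 3 carminic acid libraries lay above all 3 control libraries, while the carmine libraries lay on both sides of them. Its log2 fold change was 0.01 (95% interval -0.15 to 0.17) with carmine and 0.12 (-0.05 to 0.28) with carminic acid, with edgeR adjusted p of 0.973 and 0.717. Without carmine library C the carmine value was -0.07.

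VILL (chr3:37987978-38007185, plus strand) encodes a villin-like protein of the gelsolin superfamily. VILL had 52.1, 53.0 and 78.1 CPM with carmine, 57.8, 62.6 and 60.7 CPM with carminic acid, and 53.7, 54.9 and 51.0 CPM in control. Carmine library C is the highest of the 9, and the other carmine libraries sit inside the control range. With carmine the log2 fold change was 0.20 (SE 0.125, edgeR adjusted p = 0.548), and without library C it was -0.01. With carminic acid it was 0.18 (SE 0.125, adjusted p = 0.725), with the 3 libraries above all controls. VILL over VIL1 per kilobase was 0.110 ± 0.0152 with carmine, 0.102 ± 0.00172 with carminic acid and 0.0975 ± 0.00143 in control (SD, n = 3 each), with carmine library C at 0.128.

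ESPN (chr1:6424776-6461370, plus strand) encodes espin, an actin crosslinker that lengthens the bundles. ESPN had 94.6, 99.5 and 126 CPM with carmine, 93.0, 110 and 112 CPM with carminic acid, and 101, 91.3 and 85.6 CPM in control. Control A lay above 2 of the carmine and 1 of the carminic acid libraries, so the groups overlapped. The log2 fold change was 0.20 (95% interval -0.03 to 0.43) with carmine, where its edgeR adjusted p of 0.488 was the smallest of the 10 genes, and 0.18 (-0.05 to 0.41) with carminic acid. Leaving out 1 library at a time moved the carmine value between 0.07, without carmine C, and 0.28.

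PLS1 (chr3:142596393-142713664, plus strand) encodes plastin 1 or fimbrin, the crosslinker that spaces the filaments of the core. PLS1 had 65.3, 63.6 and 58.3 CPM with carmine, 59.0, 52.3 and 60.5 CPM with carminic acid, and 56.2, 64.6 and 69.5 CPM in control. It ran against the other genes of this group over the 9 libraries. Its Pearson correlations of log2 CPM were -0.68 with VIL1, -0.54 with VILL and -0.65 with ESPN. Carminic acid B, the library in which MYO1A, CDHR2, CDHR5 and MYO7B stood highest, held its lowest level. The log2 fold change was -0.02 (95% interval -0.22 to 0.17) with carmine and -0.15 (-0.34 to 0.05) with carminic acid, with overlapping groups in both comparisons.

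EZR (chr6:158765748-158819368, minus strand) encodes ezrin, which links the plasma membrane to actin. EZR had 378, 408 and 380 CPM with carmine, 405, 403 and 411 CPM with carminic acid, and 383, 398 and 404 CPM in control. All 9 libraries lay between 378 and 411 CPM, and the log2 fold changes were -0.02 (95% interval -0.16 to 0.11) with carmine and 0.04 (-0.10 to 0.18) with carminic acid.

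MYO1A (chr12:57028517-57051198, minus strand) encodes myosin-1a, the bridge between core and membrane. MYO1A had 230, 228 and 227 CPM with carmine, 235, 254 and 239 CPM with carminic acid, and 218, 225 and 218 CPM in control. Each treated group lay above control without overlap, which held for 7.32% of all genes with carmine and 12% with carminic acid, and the carminic acid libraries lay above the carmine ones. With carminic acid the log2 fold change was 0.14 (SE 0.0623, 95% interval 0.01 to 0.27) with an edgeR adjusted p = 0.717. With carmine it was 0.05 (SE 0.0623, adjusted p = 0.766). MYO1A over EZR per kilobase was 0.498 ± 0.0223 with carmine, 0.506 ± 0.0238 with carminic acid and 0.472 ± 0.0143 in control (SD, n = 3 each).

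All 4 genes of the intermicrovillar adhesion complex had positive log2 fold changes with carminic acid, and none passed the test. CDHR2 (chr5:176542511-176595974, plus strand) encodes the larger protocadherin of the heterotypic tip link. CDHR2 had 106, 113 and 123 CPM with carmine, 119, 144 and 132 CPM with carminic acid, and 123, 121 and 105 CPM in control. Carminic acid B and C exceed every other library, and carminic acid A lies within the control range. Its log2 fold change was 0.18 (SE 0.0893, edgeR adjusted p = 0.717) with carminic acid and -0.02 (SE 0.0894, adjusted p = 0.943) with carmine.

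CDHR5 (chr11:616583-624955, minus strand) encodes its mucin-like partner and had the fewest counts, 938 to 1363 per library. CDHR5 had 20.1, 16.8 and 22.6 CPM with carmine, 18.2, 24.3 and 23.0 CPM with carminic acid, and 21.2, 16.6 and 18.2 CPM in control. The groups overlapped, and the log2 fold changes of 0.08 (95% interval -0.20 to 0.37) with carmine and 0.23 (-0.06 to 0.51) with carminic acid had the widest intervals of the 10. CDHR5 over CDHR2 per kilobase was 0.215 ± 0.0275 with carmine, 0.205 ± 0.0131 with carminic acid and 0.200 ± 0.0256 in control (SD, n = 3 each), so the ratio of the tip link partners differed by less than its spread.

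USH1C (chr11:17493900-17544416, minus strand) encodes harmonin, the scaffold that holds cadherins and motor together and is mutated in a form of Usher syndrome. USH1C had 228, 254 and 298 CPM with carmine, 249, 292 and 262 CPM with carminic acid, and 248, 244 and 238 CPM in control. The carminic acid libraries lay above every control library, library A only narrowly, while carmine held the lowest and the highest value of all 9. The log2 fold change was 0.14 (SE 0.0911, edgeR adjusted p = 0.72) with carminic acid. With carmine it was 0.09 (SE 0.0911, adjusted p = 0.704), and -0.01 without library C.

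MYO7B (chr2:127535683-127637726, plus strand) encodes myosin-7b, the motor that carries the complex to the tips. MYO7B had 89.0, 91.9 and 95.4 CPM with carmine, 95.6, 114 and 101 CPM with carminic acid, and 105, 94.9 and 88.0 CPM in control. Every carmine library lay below every carminic acid library, and control overlapped both. The log2 fold change against control was -0.06 (95% interval -0.24 to 0.12) with carmine and 0.11 (-0.07 to 0.29) with carminic acid. MYO7B over USH1C per kilobase was 0.144 ± 0.0140 with carmine, 0.155 ± 0.00113 with carminic acid and 0.158 ± 0.0106 in control (SD, n = 3 each).

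Counted together, 4 of the 10 genes (VIL1, VILL, MYO1A and USH1C) had carminic acid libraries all above the controls and none all below, where 12% of all genes lay above and 8.82% below. The mitochondrial share of counts (1.24 to 2.08% with carminic acid, 1.94 to 2.51% in control) moved with the groups too, and its part was not tested. With carmine 1 of 10, MYO1A, lay above and none below, beside 7.32% and 7.67% of all genes. Leaving out carmine library C left 3 of 10 carmine values positive, whereas the count with carminic acid was 9 of 10 without any 1 of the 6 libraries compared. Without carmine library A, at the other end of the first principal component, 7 of 10 carmine values were positive. In that edgeR fit 2 of the 10, VILL and ESPN, had an unadjusted p under 0.05, beside 18.9% of all genes. The setting mattered for the unadjusted p: with only the 6 carminic acid and control libraries in the fit 6 of the 10 had p under 0.05, all higher, beside 17.3% of all genes, and with limma-voom 7 did, 6 of them higher, beside 19.5%. The count was 0 by library size alone, without a filter, with the replicate block, and without carminic acid B, carminic acid C, control B or control C. No adjusted p of the 10 was under 0.05 in any of the 17 alternatives for carminic acid against control, the smallest being 0.145 for VILL with 6 libraries in edgeR.

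Set directly against each other, carmine and carminic acid differ in stated concentration as well as in compound, which cannot be told apart here. Carmine is a lake of variable composition, and the labels do not say what its 10 µM refers to, so the 2 figures may not be on 1 scale. None of the 10 genes passed between them, where 0.00624% of all genes (1 of 16017) did. Log2 fold changes of carmine against carminic acid were negative in 7 of 10, with a median of -0.08, beside 51.1% positive and a median of 0.00 over all genes. CDHR2 had the lowest, -0.20 (95% interval -0.40 to -0.01, edgeR adjusted p = 0.536), and was the only one with an unadjusted p under 0.05, which 8.9% of all genes had (5.65% higher and 3.25% lower). MYO7B at -0.17 (-0.35 to 0.01) and MYO1A at -0.09 (-0.22 to 0.05) had carmine libraries all below those of carminic acid, which held for 6.01% of all genes, and none lay all above, as 7.09% did. The 4 adhesion complex genes among the 10 were all negative, with a median of -0.16. VIL1 (-0.11) and EZR (-0.06) were negative too, while VILL (0.02), ESPN (0.02) and PLS1 (0.12) were positive. ANKS4B and CALML4, parts of the same complex outside the 10, stood at -0.05 and 0.01. Without carmine library C the adjusted p of CDHR2 was 0.0762 and 5 genes had an unadjusted p under 0.05, beside 22.2% of all genes. Over all genes the log2 fold change in this comparison had a Spearman coefficient of -0.30 with GC content. With smooth trends of GC content and length removed from all 9 libraries, CDHR2 stood at -0.10, CDHR5 at -0.07, MYO7B at -0.03 and USH1C at -0.00. PLS1 was then at -0.03. The part of GC content in this comparison was not tested further.

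**Figure D3:**
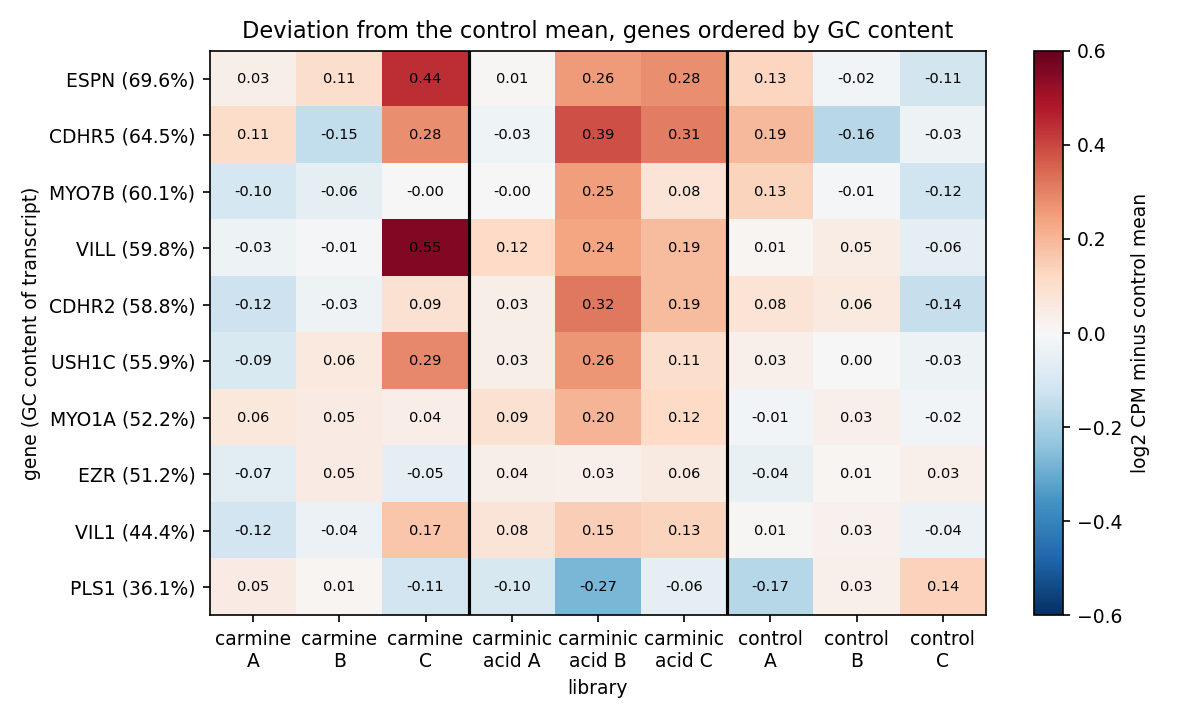
Difference of each library from the control mean in log2 CPM for the 10 microvillus genes, ordered from high to low GC content of the transcript; columns are the 9 libraries, by group. Carmine C and carminic acid B and C hold the largest positive values, with 0.55 for VILL and 0.44 for ESPN in carmine C, and PLS1 at the bottom has the opposite sign in these 3 libraries.

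Levels of most of the 10 genes varied together between libraries, within groups as well as between them. Across the 9 libraries 34 of 45 gene pairs had a positive Pearson correlation of log2 CPM, with a median of 0.53, and after the group means were taken off 29 of 45 did, with a median of 0.47. PLS1 ran against the mean standardised profile of the 10, itself included, with r = -0.76, EZR followed it with 0.23 and the other 8 with 0.74 to 0.92. That profile was highest in carminic acid B (1.00), carminic acid C (0.68) and carmine C (0.59) and lowest in carmine A (-0.71) and control C (-0.62). By library, 4, 5 and 7 of 10 genes lay above the control mean in carmine A, B and C, 7, 9 and 9 in carminic acid, and 7, 7 and 2 in control. The 3 genes outside the lists with the profile most like it, of 11073 whose average log2 CPM was 2 or more, were WWP2 (r = 0.973), ALG12 (r = 0.972) and SEZ6L2 (r = 0.972). The values describe 9 shared libraries and are no test.

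Base composition moved with these differences. Across 15443 tested genes the log2 fold change with carminic acid had a Spearman coefficient of 0.48 with GC content and -0.10 with transcript length; with carmine the coefficients were 0.15 and -0.26. Genes share the same libraries and are not independent. Among the 10 microvillus genes the coefficient with GC content was 0.73 with carminic acid and 0.41 with carmine. By library, the coefficient of GC content with the deviation from the mean of all 9 libraries was -0.43, -0.43 and 0.50 in carmine A, B and C, 0.09, 0.56 and 0.19 in carminic acid, and 0.07, -0.23 and -0.51 in control, so the 3 libraries highest in the microvillus profile were also the 3 with the highest coefficients.

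**Figure D4:**
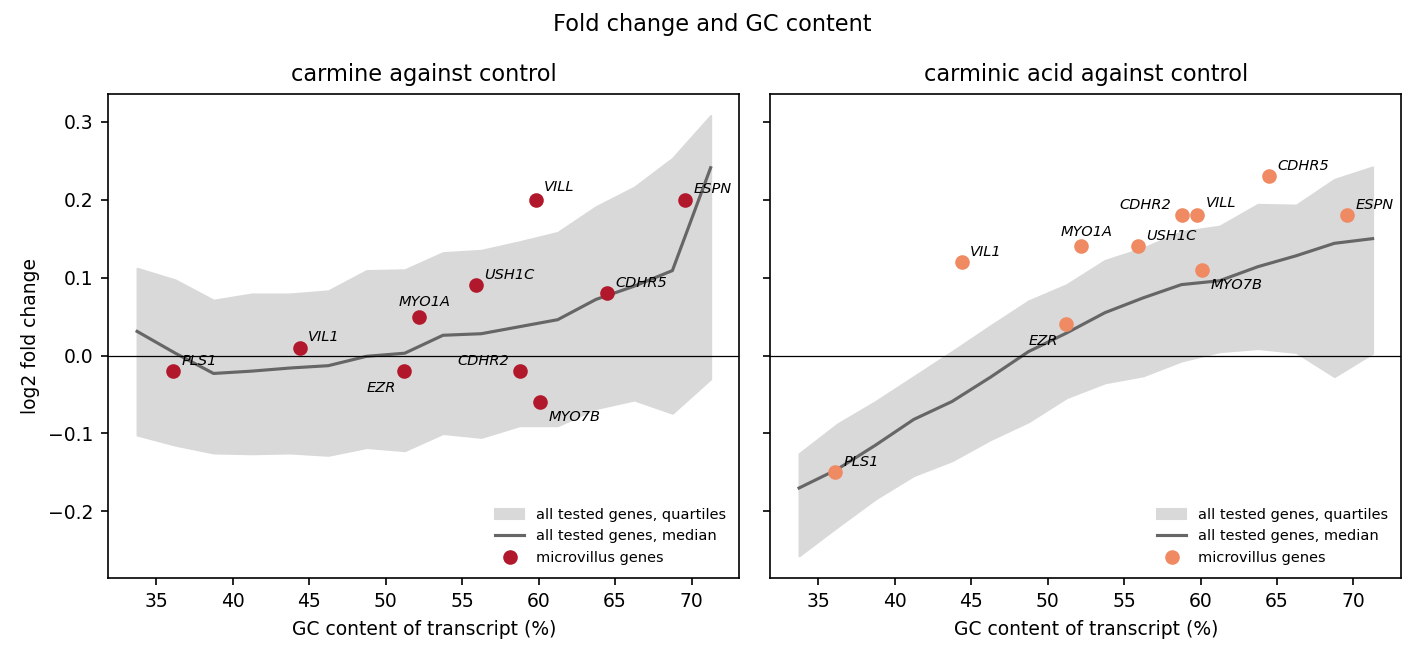
Log2 fold change against GC content of the transcript for carmine against control (left) and carminic acid against control (right); points are the 10 microvillus genes, the line is the median and the band the quartiles of all tested genes in bins of GC content. With carminic acid the median climbs with GC content and PLS1 (-0.15) sits on it, while VIL1 (0.12) lies farthest above the band. MYO1A (0.14), CDHR2 (0.18), VILL (0.18) and CDHR5 (0.23) also lie above the band, and USH1C (0.14) is at its upper edge.

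Against genes of similar GC content (within 2 percentage points) the carminic acid values stood closer to their surroundings for some genes than for others. PLS1 at -0.15 equalled the median of its 885 neighbours, -0.15. EZR at 0.04, beside 0.03, MYO7B at 0.11, beside 0.09, and ESPN at 0.18, beside 0.14, were also near theirs. VIL1 was farthest, at 0.12 beside -0.05, followed by CDHR5 at 0.23 beside 0.12 and MYO1A at 0.14 beside 0.04. The neighbours depend on the transcript chosen: that of VIL1 (44.4% GC) has 6531 bases, of which 2481 are coding. VILL and CDHR2 with carminic acid, both at 0.18, stood beside 0.09, and USH1C at 0.14 stood beside 0.07. With carmine, VILL was farthest from its neighbours' median, at 0.20 beside 0.04. With smooth trends of GC content and length removed from every library, all 10 values with carminic acid were positive, with a median of 0.11 beside 0.02 over all genes. PLS1 was then at 0.03, VIL1 at 0.17, and MYO1A at 0.13 (SE 0.0469, edgeR adjusted p = 0.462). With carmine 9 of 10 were positive in the same fit, with a median of 0.08 beside 0.03 over all genes. All 10 carmine values were positive with the replicate block added. Again none passed the adjusted threshold with either treatment. The part of GC content in the differences was not tested beyond these values.

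**Figure D5:**
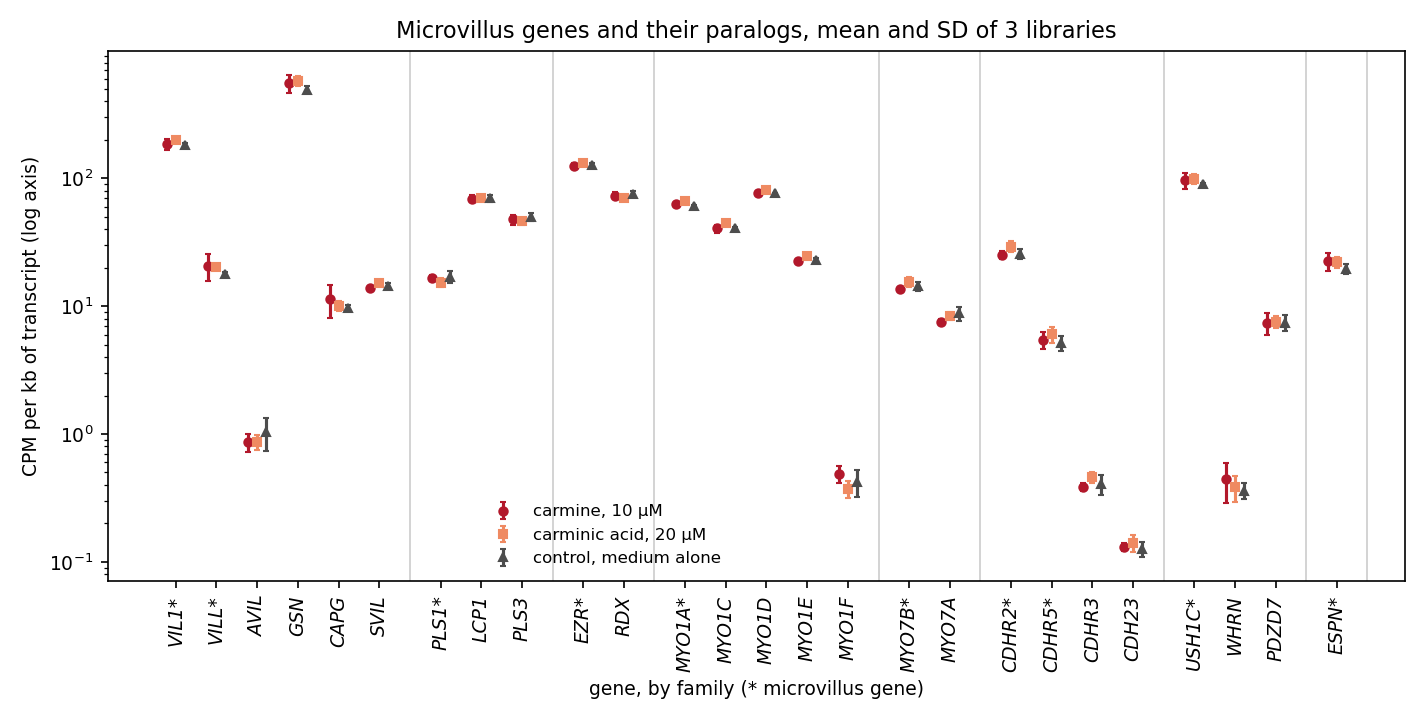
Level of the microvillus genes (marked with a star) and of their paralogs in CPM per kb of transcript on a log axis, as mean and SD of 3 libraries in carmine, carminic acid and control from left to right, grouped by family. GSN (495 in control) stands above VIL1 (184), LCP1 (69.8) above PLS1 (16.9) and MYO1D (76.2) above MYO1A (60.3), while EZR, MYO7B, CDHR2, USH1C and ESPN lead their families.

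The microvillus genes were not always the main member of their family. Of the summed CPM per kb of the gelsolin and villin family, VIL1 held 23.6 ± 0.986% with carmine, 24.2 ± 1.08% with carminic acid and 25.5 ± 0.745% in control (SD, n = 3 each), and GSN, which encodes the severing protein gelsolin, held 70.6 ± 0.934%, 70.2 ± 1.21% and 68.6 ± 1.10% in the same groups. VILL made up 2.48 ± 0.0374% of the family in control, with SVIL at 14.4, CAPG at 9.66 and AVIL at 1.03 CPM per kb. PLS1 held 12.4 ± 0.247% of the plastins with carmine, 11.5 ± 0.613% with carminic acid and 12.3 ± 0.496% in control. LCP1, plastin 2, at 51.1 ± 0.884%, and PLS3, plastin 3, at 36.6 ± 0.859% in control, were both more abundant. Log2 fold changes with carminic acid were -0.15 in PLS1, -0.12 in PLS3 and 0.02 in LCP1.

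Ezrin led its family. EZR held 63.1 ± 1.26% with carmine, 65.1 ± 1.12% with carminic acid and 62.7 ± 0.746% in control, nearly all the rest was RDX, which encodes radixin, and MSN, for moesin, was near 0 (0.0114% in control). Among class I myosins MYO1A stood at 62.5 ± 0.473 CPM per kb with carmine, 66.4 ± 2.74 with carminic acid and 60.3 ± 1.16 in control (SD, n = 3 each), beside MYO1D at 76.2, MYO1C at 41.1, MYO1E at 22.9 and MYO1F at 0.424 CPM per kb in control. MYO7B held 64.7 ± 1.31% of class VII with carmine, 64.6 ± 0.640% with carminic acid and 61.9 ± 1.11% in control, with MYO7A, the inner ear and retina form, as the remainder. MYO7A had a log2 fold change of -0.24 with carmine, beside -0.06 in MYO7B, and neither passed adjustment.

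In the cadherin group CDHR2 held 80.5 ± 2.10% with carmine, 81.1 ± 0.789% with carminic acid and 81.3 ± 1.69% in control, and CDHR5 most of the rest. CDHR3 at 0.403 and CDH23 at 0.126 CPM per kb in control were the other 2 with at least 1 CPM. USH1C held 92.5 ± 0.708%, 92.6 ± 0.217% and 92.1 ± 0.937% of the harmonin family in the same groups, over PDZD7 at 7.43 and WHRN at 0.361 CPM per kb in control. The microvillus genes kept their rank among the paralogs given here in all 3 groups.

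Some counts could hold reads of other genes. ESPN shares 210 of its 4682 windows of 50 bases (4.49%) with the pseudogene ESPNP. Reads lying wholly within a shared stretch match both copies. The longest identical run, bases 645 to 731 of the ESPN transcript, is shown here.
ESPN and ESPNP: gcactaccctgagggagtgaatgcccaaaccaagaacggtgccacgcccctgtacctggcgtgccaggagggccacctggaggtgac
ESPNP itself had 0.555 ± 0.303 CPM with carmine, 0.630 ± 0.0517 CPM with carminic acid and 0.684 ± 0.131 CPM in control, far below ESPN itself. At its 3′ end VIL1 shares 3045 exon bases with USP37 on the opposite strand, and USP37 had 96.1 ± 16.3, 89.2 ± 4.65 and 97.6 ± 3.37 CPM in the same groups. ESPN shares 383 exon bases with TNFRSF25 and CDHR2 shares 173 with GPRIN1, both on the opposite strand, and MYO1A shares 112 with TAC3 on its own strand. The sources used here do not say whether reads were counted by strand, so such reads cannot be told apart. CDHR5, USH1C, VILL and MYO7B had no 50-base window in common with another transcript and no exon overlap.

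The wider microvillus and terminal web was followed in 41 further genes, of which 40 could be tested and KRT20, a keratin of intestinal epithelium, was listed at 0 counts in all 9 libraries. Caco-2 cells are known to make this keratin, so the 0 is not read as absence of its RNA. None of the 40 passed in any of the 3 comparisons (edgeR, adjusted over all genes). With carmine 21 were positive (median 0.00), and 1 was higher and 1 lower at an unadjusted p under 0.05, beside 51.7% positive, 5.38% higher and 5.61% lower over all genes. With carminic acid 30 were positive (median 0.08), 5 were higher and none lower at that level, 12 had carminic acid libraries all above control and 1, TMIGD1, all below. Over all genes 48.1% were positive, 2.52% higher and 3.91% lower at that level, 12% all above and 8.82% all below. For carmine against carminic acid 8 were positive and 32 negative (median -0.07), with 4 lower and 0 higher at that level. There 6 had carmine libraries all below those of carminic acid and 1 all above. Over all genes in that comparison 51.1% were positive, 5.65% higher and 3.25% lower, 7.09% all above and 6.01% all below. ANKS4B and CALML4, the other parts of the adhesion complex, stood at 11.3 ± 0.492 and 141 ± 6.44 CPM per kb in control, the second of these above USH1C, and their log2 fold changes were 0.06 each with carmine and 0.11 and 0.05 with carminic acid.

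MISP, which encodes an actin bundling protein of the microvillus rootlets, had the smallest p on the higher side in both comparisons with control. MISP had 104, 110 and 138 CPM with carmine, 117, 122 and 117 CPM with carminic acid, and 98.9, 100 and 99.7 CPM in control. All 6 treated libraries lay above all 3 controls. MISP had a log2 fold change of 0.24 (SE 0.0918, edgeR adjusted p = 0.4) with carmine and 0.26 (SE 0.0918, adjusted p = 0.717) with carminic acid. Without carmine library C the carmine value was 0.109 (edgeR adjusted p = 0.487), and with limma-voom on all libraries it was 0.150. MISP passed in 3 alternatives of the edgeR fit. With carmine these were removal of the GC and length trends (0.22, adjusted p = 0.0442) and their removal together with a replicate block (0.22, adjusted p = 0.0262). With carminic acid it was the fit of only the 6 libraries compared (0.26, adjusted p = 0.0425). Over all genes these fits called 290 and 567 of 15443 with carmine and 49 of 15782 with carminic acid.

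On the lower side, PODXL, which encodes podocalyxin, an apical sialomucin that binds ezrin through NHERF proteins, had 51.8, 48.9 and 47.8 CPM with carmine, 58.6, 52.6 and 50.4 CPM with carminic acid, and 56.5, 60.4 and 59.4 CPM in control. The carmine libraries lay below all controls, with a log2 fold change of -0.25 (SE 0.0782, edgeR adjusted p = 0.371). With carminic acid the lowest p of this list on that side was that of TMIGD1, an adhesion molecule of the enterocyte microvillus base, at -0.33 (SE 0.173, edgeR adjusted p = 0.717), with 1.91, 1.89 and 1.59 CPM against 2.37, 2.47 and 1.96 CPM in control. TMIGD1 was also the positive value with the smallest p for carmine against carminic acid, 0.31. MYH9, non-muscle myosin heavy chain of the terminal web, had the smallest p on the lower side there, -0.17 (SE 0.0742, edgeR adjusted p = 0.531), with 354, 365 and 388 CPM with carmine against 424, 434 and 390 CPM with carminic acid.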

How the data were processed

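The deposited files hold raw counts per gene for 9 libraries, 1 file per library, with NCBI Gene IDs. Per the file headers, HISAT2 alignments were counted. The submitters' processing notes list hg38, HISAT, featureCounts and FastQC, with no version. Annotation release, strand setting and treatment of multiply mapped reads: not given in the sources used here. Symbols, gene positions (GRCh38.p14) and transcripts (GENCODE v29) came from reference tables.

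Counts were fitted in R 4.3.3 with edgeR 4.0.16 (filterByExpr by group, TMM scaling, robust quasi-likelihood, all 9 libraries, no covariate), with two-sided tests of 3 contrasts and Benjamini-Hochberg adjustment over all 16017 tested genes at a threshold of 0.05. The biological coefficient of variation was 10.9%. SEs came from the fold change and F statistic, and levels are TMM-scaled CPM, mean ± SD. Alternatives were RLE or library-size scaling, other filters, DESeq2 1.42.0, limma-voom (limma 3.58.1), non-robust estimation, a replicate block, removal of GC and length trends (splines with 4 degrees of freedom, 15443 genes with a transcript), only the 6 libraries compared, and leaving out each library. The fits were tested on simulated data. Pairs of libraries in a group differed beyond sampling noise (chi-square per degree of freedom at least 9.51).

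The 10 genes and the other lists were chosen with earlier results of these data known. Named beyond the 10 were, of the wider list, the gene with the smallest p in each direction, paralogs with at least 1 CPM in control (1 of them is not reported here), and the 3 genes with the most similar profile.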

Additional observations from a re-analysis of the deposited data

How the results depend on the processing

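None of the 10 microvillus genes passed the adjusted threshold in any of the 3 comparisons, in the edgeR fit or in any of its 17 alternatives, DESeq2 and limma-voom included. Over all genes the calls were 0 with edgeR, 81 with DESeq2 and 43 with limma-voom for carmine against control, 0, 6 and 34 for carminic acid against control, and 1, 77 and 13 for carmine against carminic acid. Without carmine replicate C edgeR called 685 in this last comparison. With GC and length trends removed 290 genes passed with carmine and 4 with carminic acid.

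Signs turned for 20, 2 and 10 of 170 values in the 3 comparisons, all with a size of 0.191 or less on the log2 scale. For carmine against control, VIL1 went to -0.023 by library size alone and -0.048 with limma-voom. With trends removed EZR went to 0.0039, CDHR2 to 0.021 and MYO7B to 0.0089, and with the replicate block added EZR to 0.0037, CDHR2 to 0.019, MYO7B to 0.0072 and PLS1 to 0.00027. Leaving out 1 library at a time gave ranges across 0 for VIL1 (-0.070 to 0.070), VILL (-0.013 to 0.301), PLS1 (-0.106 to 0.052), CDHR5 (-0.015 to 0.188), USH1C (-0.0099 to 0.180), CDHR2 (-0.086 to 0.029) and MYO7B (-0.112 to 0.0075). Without carmine C the signs of VIL1, VILL, PLS1, CDHR5 and USH1C turned. With carminic acid, PLS1 went to 0.026 with trends removed and 0.027 with the block as well. For carmine against carminic acid, PLS1 went to -0.026 and -0.027 in these 2 fits, VILL and ESPN to -0.137 and -0.068 with limma-voom, and the ranges without 1 library crossed 0 for VILL (-0.191 to 0.118), ESPN (-0.106 to 0.099) and USH1C (-0.143 to 0.041). The cause was not tested.

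The labels do not say whether libraries with the same letter were paired. Their deviations from the group means correlated at -0.15 to 0.10. With the replicate block 0 of the 10 genes were called, and genes with an unadjusted p under 0.05 went to 1616 with carmine, 866 with carminic acid and 1261 between the treatments. The coding length of the protein table was not run, and the coding length used for levels was chosen after seeing the data. Depth limits CDHR5 most (938 to 1363 counts).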

Other observations

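VAMP7, which encodes a vesicle fusion protein of apical delivery and was singled out after its values were seen, was several times higher in 3 of the 6 treated libraries than in the other treated libraries and in control. It had 1.05, 0.962 and 7.63 CPM with carmine, 5.48, 5.23 and 0.778 CPM with carminic acid, and 1.2, 0.989 and 0.841 CPM in control. Its log2 fold changes of 1.66 (SE 1.09) with carmine and 1.92 (SE 1.08) with carminic acid did not pass in edgeR (adjusted p = 0.589 and 0.717). The cause of the jumps within groups was not tested, and the treatment of multiply mapped reads is not given.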
